A study of Homo sapiens with 8 samples.

Results

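HOX genes encode homeodomain transcription factors that set position along the body axis. In mammals they lie in HOXA, HOXB, HOXC and HOXD clusters, numbered by paralogue group from the 3′ to the 5′ end, and many adult cells and carcinoma lines keep a characteristic set of them switched on. Polycomb complexes repress the clusters, trithorax complexes of the MLL type keep them active, retinoic acid acts on them in development, and TALE homeodomain proteins such as PBX and MEIS bind DNA together with the HOX proteins. The genes described here were chosen by symbol, as HOXA, HOXB, HOXC or HOXD followed by digits only, which leaves out antisense genes. Of the 39 human genes that fit, 34 were among the 32066 genes of the count table. HOXB1, HOXD3, HOXD10, HOXD11 and HOXD12 had no row there and were not analysed here. On GRCh38 (GENCODE 29), the HOXB genes span chr17:48528526-48729178, the HOXC genes chr12:53938765-54056030 and the HOXD genes chr2:176092891-176190907.

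RNA was sequenced from DU145, an established epithelial prostate carcinoma line from a brain metastasis, in 4 libraries of cells with exogenous SOX11 expression and 4 libraries of control cells. All 8 libraries come from this line, and the labels do not name the vector, the clone or what the control cells carry. SOX11 is a transcription factor of the developing nervous system, and the comparison asks which transcripts change when it is expressed. Nothing in the labels says that libraries of a group came from separate cultures, so p-values measure the spread between these libraries, which may be technical.

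Total counts ran from 15309037 to 16740516 in SOX11 libraries and from 14641250 to 18706095 in control libraries. The introduced gene, SOX11, had 303 to 317 counts in the SOX11 libraries and 0 in the control libraries. The epithelial markers KRT8, KRT18, KRT19, EPCAM, CDH1, CDH3 and ITGB4 were detected in all 8 libraries, with summed counts of 20408 to 22646 in SOX11 and 26125 to 33687 in control. Blood and endothelial markers summed to at most 13 counts in any library, fibroblast markers to 96 to 125 counts in SOX11 and 48 to 85 in control, and neural markers to 76 to 98 in SOX11 and 64 to 74 in control. Most of the fibroblast sum was the collagen gene COL1A1, with 88 to 117 counts in SOX11 and 39 to 75 in control. Another collagen gene, COL3A1, went the other way, with 0 to 4 counts in SOX11 and 3 to 6 in control. A single library stood apart. In SOX11 replicate 1, 40 genes had at least 10 counts while no other library had more than 2 of any of them, against 0 to 2 such genes in each of the other 7 libraries.

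HOXB13 was among those 40 genes. HOXB13 is the most 5′ gene of its cluster and a factor of luminal prostate epithelium. It had 84 counts in SOX11 replicate 1 and 0 in SOX11 replicates 2, 3 and 4, against 2 counts in control replicate 4 and 0 in control replicates 1, 2 and 3. A count of 0 allows up to 3 counts, or 0.162 to 0.206 CPM (counts scaled to library size) in these libraries, while HOXB13 in SOX11 replicate 1 was at 5.18 CPM. Its high value therefore belonged to 1 library and not to the SOX11 group, and no fold change between the groups is given. In bulk RNA, few cells with much of a transcript and many cells with little of it cannot be told apart.

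Several luminal prostate genes were raised in the same library as HOXB13. Over the 6 luminal genes examined, summed counts were 840 in SOX11 replicate 1 and 289 to 358 in the other 7 libraries. Part of that list was thus expressed in every library and did not move with HOXB13. The kallikrein genes KLK3 and KLK2 had 95 and 161 counts in SOX11 replicate 1, and at most 4 and 3 elsewhere. FOLH1 (prostate-specific membrane antigen) had 107 counts and the protease gene TMPRSS2 had 24, against at most 3 and 1 elsewhere. HOXC12 followed the same library, with 4 counts in SOX11 replicate 1 and 0 in the other 7. Control replicate 4, with its 2 HOXB13 counts, also held 4 counts of KLK3, 3 of KLK2 and 3 of FOLH1. Whether these counts, HOXB13 included, come from the DU145 cells themselves or from other RNA in those libraries was not tested, and neither was their part in other results. The numbers of HOX genes, cluster neighbours and listed genes called are therefore also given without SOX11 replicate 1.

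**Figure D1:**
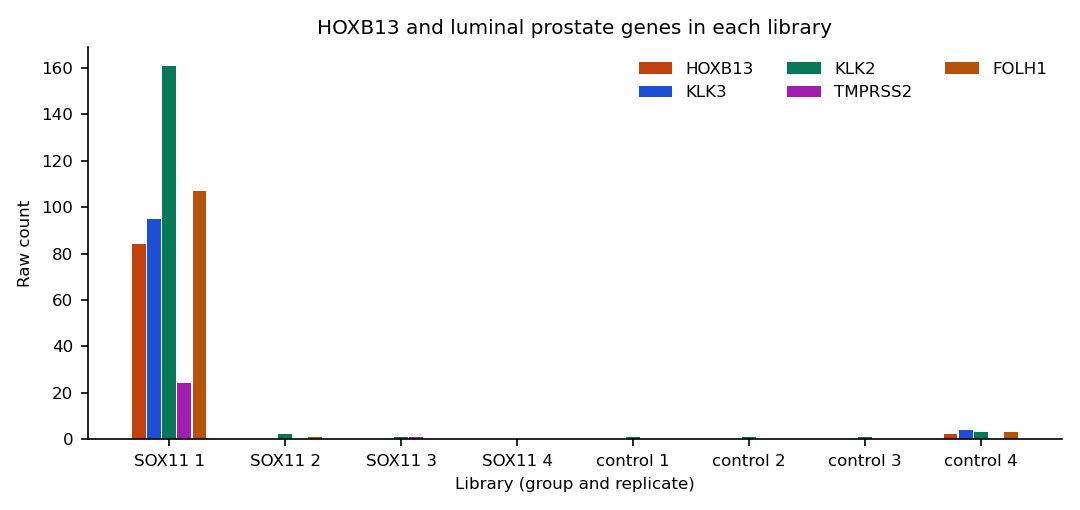
Raw counts of HOXB13 and of KLK3, KLK2, TMPRSS2 and FOLH1 (bars, by colour) in each of the 4 SOX11 and 4 control libraries. The 84 HOXB13 counts and the 24 to 161 counts of the luminal genes stand in SOX11 replicate 1, and control replicate 4 holds 2 HOXB13 counts.

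Promoter sequences of 3 genes are shown, since SOX11 belongs to a family that binds short core motifs. HOXD1 had the largest difference between the groups, HOXA9 had the most matches to the core motif ACAAT among the HOX windows, and HOXA11 holds the other core motif searched, ACAAAG. Each is the 250 bases before the RefSeq start (GRCh38.p14), read 5′ to 3′ on the gene's strand. HOXD1 lies at chr2:176188418-176188667 on the plus strand. HOXA9 lies at chr7:27165538-27165787 and HOXA11 at chr7:27185233-27185482, both on the minus strand. Capitals mark a match to either motif on either strand.

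HOXD1: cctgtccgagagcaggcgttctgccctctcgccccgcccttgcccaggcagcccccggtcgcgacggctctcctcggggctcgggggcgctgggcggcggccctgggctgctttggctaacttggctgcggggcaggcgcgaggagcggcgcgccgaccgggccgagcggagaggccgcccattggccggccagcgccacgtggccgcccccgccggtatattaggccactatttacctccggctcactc
HOXA9: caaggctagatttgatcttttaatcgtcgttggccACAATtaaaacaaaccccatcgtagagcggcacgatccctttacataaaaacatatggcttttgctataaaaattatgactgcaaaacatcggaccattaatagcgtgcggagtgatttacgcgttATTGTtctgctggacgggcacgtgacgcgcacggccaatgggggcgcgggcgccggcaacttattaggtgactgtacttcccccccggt
HOXA11: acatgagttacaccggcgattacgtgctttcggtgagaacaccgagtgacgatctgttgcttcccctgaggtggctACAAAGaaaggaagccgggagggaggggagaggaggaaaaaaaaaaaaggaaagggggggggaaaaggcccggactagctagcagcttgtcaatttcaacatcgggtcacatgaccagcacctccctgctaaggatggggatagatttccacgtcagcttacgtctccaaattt

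The HOXD1 window held 0 matches and had a GC content of 74.8%. The HOXA9 window held an ACAAT whose first base lies at -215 from the start, and its reverse complement at -89, with a GC content of 48.8%. The HOXA11 window held an ACAAAG at -174. RefSeq windows were matched for 20 of the 39 HOX genes, 15 of them with a row in the table, giving 27 windows because HOXA3 and HOXA10 have several starts. ACAAT was found in 8 of these 27 windows (29.6%) and in 24.6% of all 35116 windows of the same length. HOXC4 and HOXC5 have the same window, which is counted for both, and several of the 8 belong to HOXA3. The longer form AACAAT, which contains ACAAT, was in 1 HOX window (3.70%) and 8.98% of all windows. ACAATG, which contains it too, was in 0% of HOX windows and 9.29% of all windows. ACAAAG was in 2 HOX windows (7.41%) and 13.7% of all windows. A match describes letters and not a bound site.

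HOX transcripts were a small and similar share of the libraries in both groups. They made up 0.0200% to 0.0216% of counts in SOX11 libraries and 0.0190% to 0.0208% in control libraries. Of the 34 genes, 27 passed the filter on low counts and were tested. They were 10 HOXA, 8 HOXB, 7 HOXC and 2 HOXD genes. The 7 that did not pass were HOXA4, HOXB13, HOXC5, HOXC12, HOXD4, HOXD8 and HOXD13. Apart from HOXB13, the highest count of any of these in any library was 8, for HOXD8. HOXD13, the most 5′ HOXD gene, had 1 count in all 8 libraries together.

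The HOXB cluster held the largest share of HOX transcripts. In control libraries it contributed 45.9% of the summed HOX CPM, HOXA 30.1%, HOXC 21.9% and HOXD 2.07%. To compare genes, levels were divided by the length of annotated exon sequence and are given as CPM per kilobase (kb). HOXB7 was the most abundant, at 14.9 ± 0.251 CPM per kb in SOX11 and 15.5 ± 1.14 in control (SD, n = 4 each). HOXB9 followed at 9.07 ± 0.411 CPM per kb in SOX11 and 8.81 ± 1.01 in control. HOXB6 was at 8.74 ± 0.404 in SOX11 and 7.81 ± 0.924 in control, and HOXC10 at 6.17 ± 0.619 in SOX11 and 7.02 ± 0.647 in control. HOXB4 was the lowest of the tested genes, at 0.339 ± 0.0822 CPM per kb in SOX11 and 0.283 ± 0.0640 in control.

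Most neighbours in this order could not be separated. Of the 26 neighbouring pairs of tested genes, the control libraries of the higher gene all lay above those of the lower gene in 4: HOXB7 over HOXB9, HOXC10 over HOXC9, HOXB3 over HOXA2, and HOXA2 over HOXA9. With the longest transcript as the length, the 10 highest genes were the same 10.

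**Figure D2:**
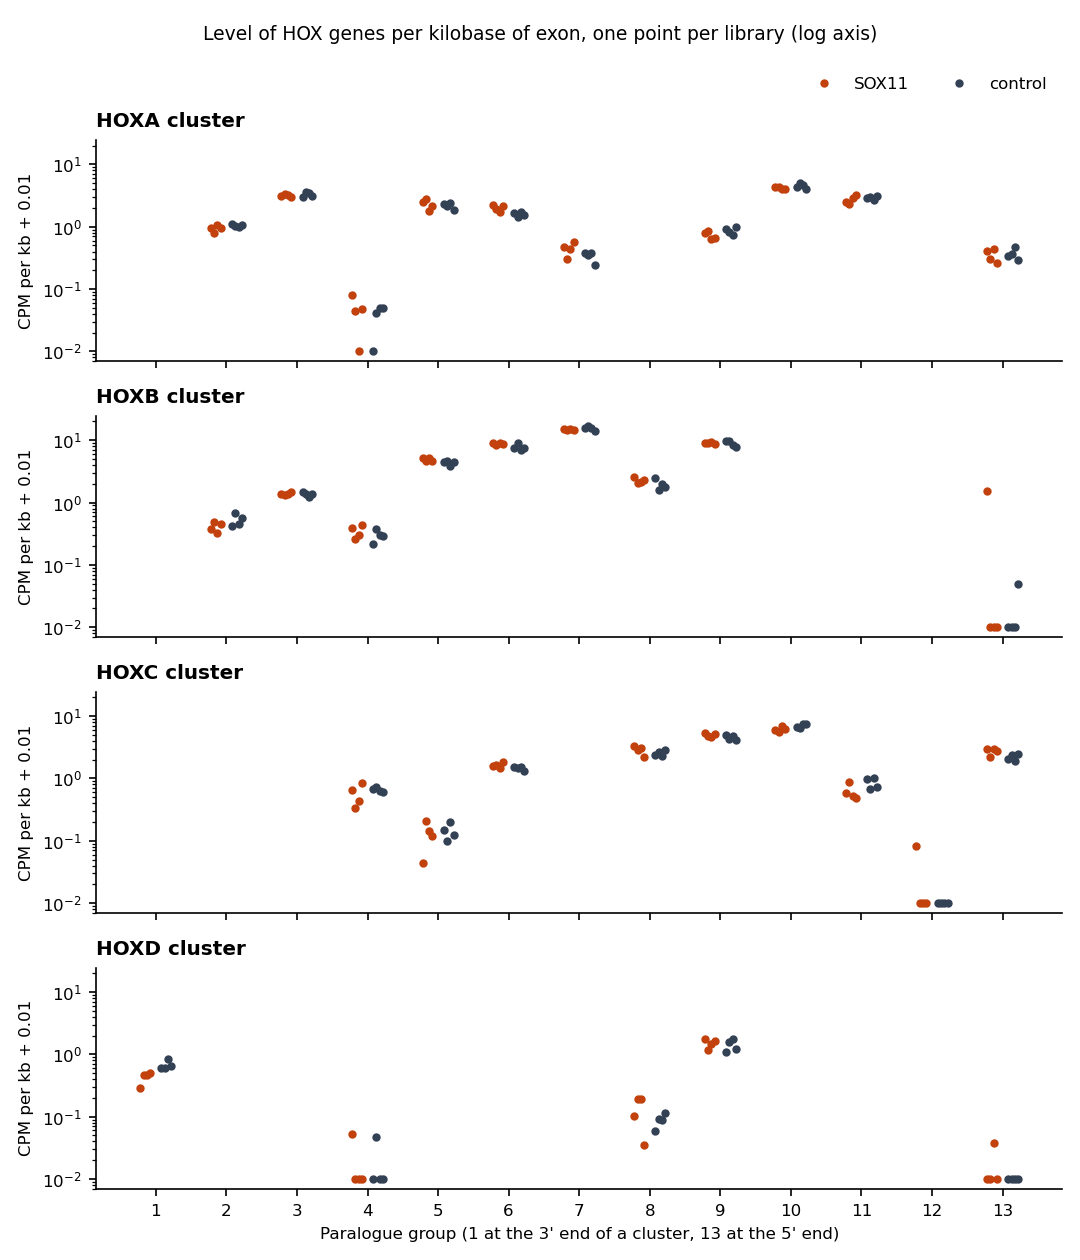
CPM per kb plus 0.01 on a log axis against paralogue group, 1 panel per cluster, with 1 point per library (SOX11 left, control right). As 1 tested HOX gene counted only in totals is not drawn, a blank position need not mean no expression. The HOXA, HOXB and HOXC clusters are read along most of their length, whereas in HOXD the tested genes are HOXD1 and HOXD9. HOXB13 and HOXC12 show 1 raised SOX11 point each.

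By position along the clusters, the median control level was 1.20 CPM per kb over the 6 tested genes of paralogue groups 1 to 3, 1.94 over the 11 of groups 4 to 8 and 2.55 over the 10 of groups 9 to 13. Spearman's rho between control level and paralogue group was 0.21 over the 27 genes, which share the same libraries. In HOXA, HOXA3 was at 3.28 CPM per kb in control, HOXA4 at 0.0275, HOXA5 at 2.18, HOXA6 at 1.57 and HOXA7 at 0.327. In HOXC, the control level was 0.647 CPM per kb for HOXC4, 0.134 for HOXC5, 1.45 for HOXC6, 2.52 for HOXC8, 4.56 for HOXC9 and 7.02 for HOXC10, from the 3′ end on. Beyond it lay HOXC11 at 0.837, HOXC12 at 0 and HOXC13 at 2.22. Summed by paralogue group, group 7 (HOXA7 and HOXB7) was at 15.3 CPM per kb in SOX11 and 15.9 in control, and group 9 at 16.3 in SOX11 and 15.6 in control. Some annotated HOX genes overlap on the same strand (HOXA3 with HOXA4 to HOXA6, HOXB3 with HOXB4 to HOXB6, HOXB7 with HOXB8 and HOXB9, HOXA9 with HOXA10, HOXC6 with HOXC4, HOXC8 and HOXC9). HOXC4 and HOXC5 share a RefSeq start. How the counting split shared exons is not given in the sources used here, so the single levels of these genes are uncertain.

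None of the 27 tested HOX genes passed the test for a change in SOX11 cells. The quasi-likelihood test of edgeR called 0 at a Benjamini-Hochberg adjusted p below 0.05, while it called 20.0% of all 15665 tested genes. Among the 7249 tested genes in the same range of mean level as these HOX genes, 0.922 to 23.2 CPM, it called 15.5%. At an unadjusted p below 0.05 there were 5 HOX genes (HOXB6, HOXC10, HOXC11, HOXC13 and HOXD1), against 31.5% of all tested genes. limma-voom also called 0, with 5 at an unadjusted p below 0.05, and DESeq2 called 0, with 0 at an unadjusted p below 0.05 and 1 gene without an adjusted p. Without SOX11 replicate 1, edgeR called 0 of 27 HOX genes, with 0 at an unadjusted p below 0.05, and 16.4% of all tested genes.

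The share of calls grew with level over all genes. It was 7.10% of tested genes under 2 CPM, where 6 of the HOX genes lie, 13.5% at 2 to 5 CPM (7 HOX genes), 19.7% at 5 to 10 CPM (7) and 24.9% at 10 CPM or more (7). The 20.0% set beside other gene lists below is not matched for level. The median log2 fold change (SOX11 over control) was 0.036 over the 27 HOX genes and 0.0011 over all tested genes. The median size of the change, without its sign, was 0.15 over the HOX genes, 0.11 over all tested genes and 0.15 over those in the same range of level.

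For each gene taken alone, a 95% interval gives the fold changes that go with the spread between these libraries, which may be technical. The 95% interval of the fold change lay within 2-fold in either direction for 26 of the 27 genes and within 1.5-fold for 20. The exception to the first was HOXD1, whose interval reached 0.446-fold. The most abundant genes were bounded most closely. HOXB7 had an interval of 0.873-fold to 1.04-fold, HOXB9 of 0.928-fold to 1.13-fold, HOXB6 of 1.00-fold to 1.23-fold, HOXA10 of 0.834-fold to 1.03-fold, HOXC10 of 0.784-fold to 0.991-fold and HOXA3 of 0.865-fold to 1.08-fold. Those of HOXB6 and HOXC10 leave out equality. Among genes near 1 CPM the bounds were wide, as for HOXA7, a central HOXA gene, at 0.892-fold to 1.96-fold.

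**Figure D3:**
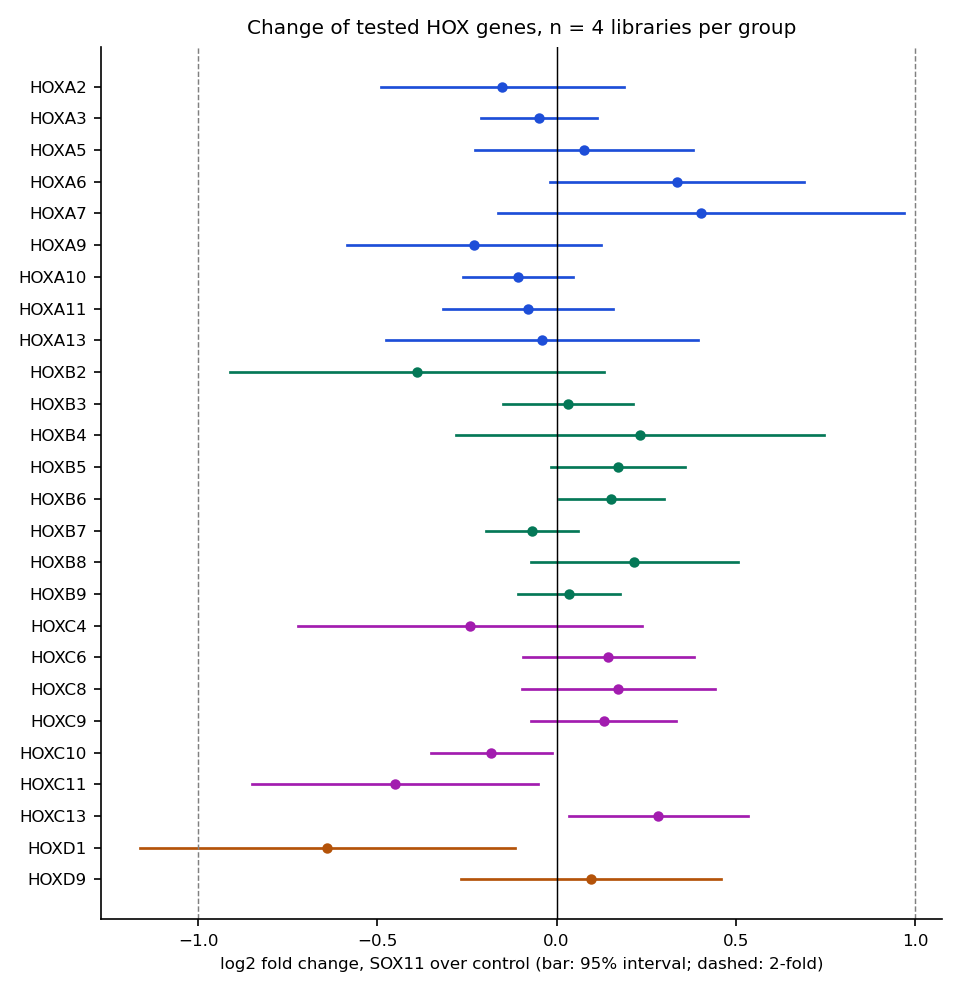
Log2 fold change of SOX11 over control (points) with 95% intervals (bars) for 26 of the 27 tested HOX genes, in cluster and paralogue order (1 gene counted only in totals is not drawn). Each interval except that of HOXD1 stays inside the dashed 2-fold lines, and 5 exclude 0.

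The most abundant gene shows how close the groups were. HOXB7 was at 23.0, 22.2, 23.1 and 22.6 CPM in SOX11 replicates 1 to 4, against 23.6, 26.0, 23.7 and 21.7 CPM in control replicates 1 to 4. The SOX11 values lay inside the range of the control values (log2 fold change -0.07 ± 0.062 SE, edgeR adjusted p = 0.50). HOXB9 was at 23.4, 23.7, 24.6 and 22.0 CPM in SOX11, against 24.9, 24.9, 21.4 and 19.8 CPM in control, again with SOX11 inside the control range (0.036 ± 0.070, adjusted p = 0.783). HOXB6 was at 23.8, 21.4, 23.4 and 22.5 CPM in SOX11, against 19.9, 23.8, 18.3 and 19.4 CPM in control. Control replicate 2 was the highest of these 8 values, and the groups overlapped (0.15 ± 0.072, adjusted p = 0.140). Without control replicate 2, HOXB6 was called higher (log2 fold change 0.25, adjusted p = 0.0167). That fit leaves out the library that ran against the difference, which favours a call.

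HOXD1, the most 3′ HOXD gene, had the largest difference. It was at 0.555, 0.887, 0.912 and 0.977 CPM in SOX11 replicates 1 to 4, against 1.15, 1.19, 1.65 and 1.25 CPM in control replicates 1 to 4. All SOX11 values lay below all control values, and HOXD1 was the only gene of the 27 tested HOX genes whose groups did not overlap, beside 21.1% of all tested genes. These levels rest on 9 to 15 counts in SOX11 libraries and 18 to 24 in control libraries. The log2 fold change was -0.64 ± 0.26 SE (adjusted p = 0.0781), which missed the threshold. Without SOX11 replicate 1, its lowest library, the log2 fold change was -0.49 (adjusted p = 0.224).

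The antisense RNA gene HAGLR is the HOXD1 neighbour with a called fall. It is transcribed from the opposite strand, and the farthest of its RefSeq starts lies 290 bases inside HOXD1, so the genes overlap. It was at 12.8, 14.6, 12.7 and 13.1 CPM in SOX11, against 17.4, 16.2, 15.1 and 14.4 CPM in control, with SOX11 replicate 2 above control replicate 4 (log2 fold change -0.25 ± 0.079, adjusted p = 0.0218). DESeq2 did not call it (adjusted p = 0.0519), nor did edgeR when SOX11 replicate 1 (0.0580), SOX11 replicate 3 (0.0669), control replicate 1 (0.0860) or control replicate 2 (0.0631) was left out. The library kit keeps strand, but the strand setting of the counting is not given in the sources used here, so reads of HOXD1 and HAGLR may not be fully told apart. HOXD9, the other tested HOXD gene, was at 3.33, 2.19, 2.68 and 3.06 CPM in SOX11, against 2.04, 2.92, 3.30 and 2.22 CPM in control, with groups that overlapped (0.095 ± 0.18, adjusted p = 0.772).

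Within HOXC, the 5′ genes had values in both directions. HOXC13, known for its role in hair and nail, was at 7.03, 5.26, 7.24 and 6.71 CPM in SOX11, against 4.98, 5.79, 4.67 and 6.03 CPM in control. SOX11 replicate 2 lay among the control values (log2 fold change 0.28 ± 0.12, adjusted p = 0.104), and without it the gene was called higher (0.38, adjusted p = 0.0266). HOXC11 was at 1.85, 2.78, 1.70 and 1.56 CPM in SOX11, against 3.13, 2.22, 3.23 and 2.36 CPM in control. The same SOX11 replicate 2 was its exception (-0.45 ± 0.20, adjusted p = 0.106), and without it HOXC11 was called lower (-0.67, adjusted p = 0.0190). Leaving out the library that runs against a difference favours a call. Without SOX11 replicate 1, neither gene had an unadjusted p below 0.05.

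HOXC10, a gene of the lumbar and hindlimb region in the embryo, was at 13.9, 12.8, 16.2 and 14.5 CPM in SOX11, against 15.3, 14.8, 17.7 and 17.7 CPM in control. SOX11 replicate 3 was the highest of its group and above 2 control libraries (-0.18 ± 0.082, adjusted p = 0.124), and without it HOXC10 was called lower (-0.25, adjusted p = 0.0484). Here too the library left out ran against the difference. Of the 3′ and central genes, HOXC4 had a log2 fold change of -0.24 (adjusted p = 0.533), HOXC6 of 0.14 (0.436), HOXC8 of 0.17 (0.404) and HOXC9 of 0.13 (0.400). In SOX11 libraries HOXC4 ranged from 0.887 CPM in replicate 2 to 2.28 CPM in replicate 4, against 1.59 to 1.95 CPM in control.

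HOXA genes, which include factors of hindbrain, blood, limb and urogenital development, had log2 fold changes from -0.23 (HOXA9) to 0.40 (HOXA7), with 4 positive and 6 negative. HOXA6 was at 2.84, 2.43, 2.19 and 2.74 CPM in SOX11, against 2.11, 1.84, 2.20 and 1.94 CPM in control, where control replicate 3 exceeded SOX11 replicate 3 by a small margin (0.34 ± 0.17, adjusted p = 0.186). HOXA9, a gene of blood progenitors, was at 2.41, 2.54, 1.89 and 1.95 CPM in SOX11, against 2.75, 2.49, 2.20 and 2.91 CPM in control, with overlapping groups (-0.23 ± 0.17, adjusted p = 0.398). HOXA10 averaged 15.5 ± 0.642 CPM in SOX11 and 16.7 ± 1.5 CPM in control (-0.11, adjusted p = 0.347). HOXA11 averaged 6.31 ± 0.988 CPM in SOX11 and 6.65 ± 0.399 CPM in control (-0.080, adjusted p = 0.696). HOXA7 rests on 8 to 21 counts a library (0.40 ± 0.28, adjusted p = 0.345). HOXA2 had a log2 fold change of -0.15 (adjusted p = 0.590), HOXA3 of -0.048 (0.736), HOXA5 of 0.077 (0.779) and HOXA13 of -0.041 (0.922).

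Of the HOXB genes, 6 had a positive and 2 a negative log2 fold change, from -0.39 (HOXB2) to 0.23 (HOXB4). HOXB2, a hindbrain gene, averaged 0.940 ± 0.177 CPM in SOX11 and 1.22 ± 0.280 CPM in control (-0.39 ± 0.26, adjusted p = 0.318). HOXB5 averaged 10.0 ± 0.690 CPM in SOX11 and 8.86 ± 0.624 CPM in control (0.17 ± 0.092, adjusted p = 0.206). HOXB8 averaged 4.60 ± 0.475 CPM in SOX11 and 3.97 ± 0.750 CPM in control (0.22 ± 0.14, adjusted p = 0.314). HOXB3 had a log2 fold change of 0.032 (adjusted p = 0.850) and HOXB4 of 0.23 (adjusted p = 0.584).

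Sums over each cluster were close in the groups. The HOXA sum was 58.0 to 60.2 CPM in SOX11 libraries and 57.9 to 63.1 CPM in control libraries. The HOXB sum was 93.0 to 104 CPM in SOX11 and 86.1 to 100.4 CPM in control. SOX11 replicate 1 was the highest at 103.8 CPM, and 98.7 CPM there without its HOXB13 counts. HOXC sums were 41.2 to 45.6 CPM in SOX11 and 42.4 to 45.3 CPM in control. HOXD sums were 3.55 to 4.20 CPM in SOX11 and 3.32 to 5.15 CPM in control. Every cluster's groups overlapped.

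**Figure D4:**
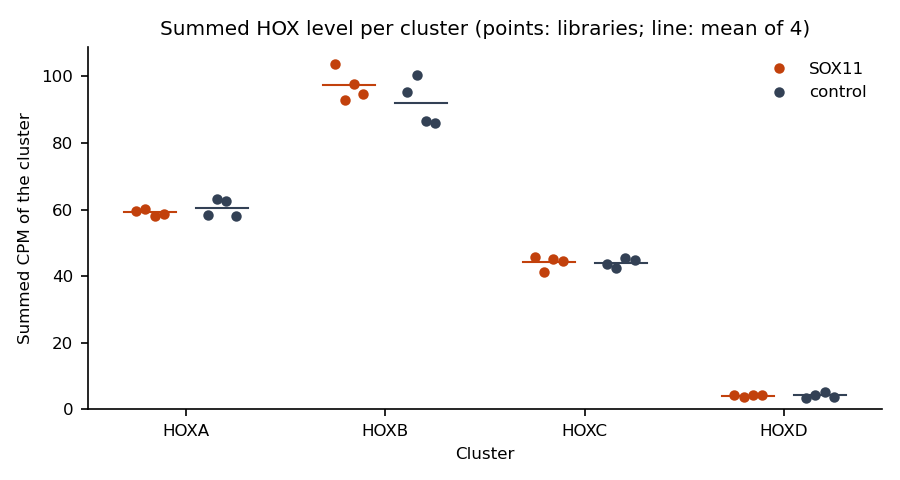
Summed CPM of the HOX genes of each cluster (points, 1 per library, SOX11 left and control right; lines, mean of 4). HOXB sums run from 93.0 to 104 in SOX11 and from 86.1 to 100.4 in control, and the groups overlap in every cluster.

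By position, 9 of the 11 tested genes of groups 4 to 8 had a positive log2 fold change (median 0.17), as had 2 of the 6 of groups 1 to 3 (median -0.10) and 4 of the 10 of groups 9 to 13 (median -0.061). The 9 include HOXB6, HOXB5, HOXB8, HOXC8 and HOXA6, and 0 of them were called. Spearman's rho of the change with paralogue group was 0.084 over the 27 genes. In group 11, HOXA11 was at -0.080 ± 0.12 and HOXC11 at -0.45 ± 0.20 (SE), and in group 13 HOXA13 was at -0.041 ± 0.21 and HOXC13 at 0.28 ± 0.12. None of these was called, and differences between paralogues were not tested.

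Of 27 noncoding and other genes inside the clusters with a row, 12 were tested, 0 were called higher and 1, HAGLR, was called lower, beside 20.0% of all tested genes called in either direction. Most of the 12 lay under 5 CPM, where fewer genes are called (7.10% under 2 CPM and 13.5% at 2 to 5 CPM). With SOX11 replicate 1 left out, 0 were called in either direction. HOTAIR, a noncoding RNA that overlaps HOXC11 on the opposite strand, was at 3.16 CPM in SOX11 and 3.01 CPM in control (adjusted p = 0.803). As with HOXD1 and HAGLR, reads of HOXC11 and HOTAIR may not be fully told apart. HOXC13-AS, which faces HOXC13, was at 0.845 CPM in SOX11 and 0.470 CPM in control (log2 fold change 0.87 ± 0.34, adjusted p = 0.0714).

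Within 200 kb beyond the cluster ends, 12 of 28 genes were tested, and 1 was called higher and 2 lower, a share near the 20.0% of all tested genes. The fit without SOX11 replicate 1 called 1 higher and 1 lower. CBX5, which encodes the heterochromatin protein HP1 alpha and lies beside HOXC, rose to 189, 203, 189 and 186 CPM in SOX11 replicates 1 to 4, against 142, 129, 144 and 135 CPM in control replicates 1 to 4. The groups did not overlap (log2 fold change 0.48 ± 0.038, adjusted p = 3.86e-11), while 0 of the 7 tested HOXC genes was called. ATP5MC1, an ATP synthase subunit gene beside HOXB, fell by 0.15 on the log2 scale (adjusted p = 0.00484), with 120 CPM in SOX11 and 132 CPM in control. LNPK, beside HOXD, fell by 0.15 (adjusted p = 0.0448), and 11 of the 16 alternative fits ended its call, among them the fit without SOX11 replicate 1 (adjusted p = 0.105).

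Of 11 TALE homeodomain genes (PBX, MEIS, PKNOX and TGIF), 10 were tested, 1 was called higher and 0 lower, beside 20.0% of all tested genes. The count was the same without SOX11 replicate 1. That gene was TGIF2, a TALE homeodomain repressor. TGIF2 rose to 9.75, 10.2, 10.7 and 10.4 CPM in SOX11 replicates 1 to 4, against 6.45, 6.76, 5.77 and 6.72 CPM in control replicates 1 to 4 (log2 fold change 0.67 ± 0.096, adjusted p = 4.72e-06). The groups did not overlap, and the call held without SOX11 replicate 1 (adjusted p = 2.10e-05). None of the tested PBX and MEIS genes, the HOX partners named at the start, was called. PBX2, the most abundant, was at 109 CPM in SOX11 and 107 CPM in control (adjusted p = 0.684). PBX3 was at 36.6 CPM in SOX11 and 35.7 CPM in control (adjusted p = 0.650), and MEIS2 at 21.4 CPM in SOX11 and 22.6 CPM in control (adjusted p = 0.415). The median log2 fold change of the list was 0.066, beside 0.0011 over all tested genes.

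Among Polycomb genes, 4 of 20 tested were called higher and 3 lower, beside 20.0% of all tested genes called in either direction, with a median log2 fold change of -0.0047. Nearly all of the 20 lay at 10 CPM or more, where 24.9% of tested genes were called. CBX2, a chromobox subunit of Polycomb repressive complex 1, rose to 12.2, 10.6, 12.5 and 12.6 CPM in SOX11, against 6.90, 6.28, 5.36 and 6.24 CPM in control (log2 fold change 0.95 ± 0.099, adjusted p = 1.72e-08). Its groups did not overlap. The histone-binding gene RBBP4 rose by 0.22 (adjusted p = 6.61e-06), and PHF19 fell by 0.17 and BMI1 fell by 0.18 (adjusted p = 0.00133 and 0.00347). The methyltransferase gene EZH2 was at 114 CPM in SOX11 and 119 CPM in control (adjusted p = 0.165), and its partner SUZ12 at 117 CPM in SOX11 and 118 CPM in control (adjusted p = 0.938). Without SOX11 replicate 1, 3 were called higher and 3 lower.

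Of 17 tested MLL and trithorax activator genes, 3 were called higher and 1 lower, near the 20.0% of all tested genes, with a median of 0.0074. AFF4, a scaffold of the super elongation complex, rose by 0.19 (adjusted p = 5.22e-05), the demethylase gene KDM6B by 0.33 (adjusted p = 0.000264), and AFF1 fell by 0.20 (adjusted p = 0.00199). KMT2A, the MLL methyltransferase gene, rose by 0.11 (adjusted p = 0.0195). Its call ended in 4 of the 16 alternative fits, with adjusted p of 0.0602 to 0.182. Among them were the fits without SOX11 replicate 1 (0.0602) and without control replicate 4 (0.0967). In the list, 2 were called higher and 1 lower without SOX11 replicate 1. Among retinoic acid genes, 3 of 9 tested were called higher and 0 lower, beside the same 20.0% of all tested genes, with a median of 0.032. RDH10, an enzyme of retinoic acid synthesis, rose by 0.36 (adjusted p = 0.000135), and the receptor genes RXRB and RARG rose by 0.19 and 0.15 (adjusted p = 0.00447 and 0.0179). The RARG call ended in 2 of the 16 alternative fits, among them the fit without control replicate 3 (adjusted p = 0.0693). Without SOX11 replicate 1, 3 were called higher and 1 lower, the last being CRABP2, a retinoic acid binding protein gene (log2 fold change -0.26, adjusted p = 0.0131, beside 0.0718 with all libraries).

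Of the 4 tested CDX and hindbrain regulators, 0 were called higher and 1 lower, beside 20.0% of all tested genes, with a median of -0.066. GMNN, which encodes geminin, fell by 0.15 (adjusted p = 0.0172), and its call ended in 2 of the 16 alternative fits. Without SOX11 replicate 1 its adjusted p was 0.0596, which left 0 called in the list. Other homeobox genes of the same class had 1 of 14 tested called higher and 3 lower, again beside 20.0% of all tested genes, with a median of 0.032. DLX4 rose by 0.34 (adjusted p = 0.00936) and LBX2 fell by 0.41 (adjusted p = 0.00728). MSX2 and HHEX fell by 0.63 and fell by 0.27 (adjusted p = 0.0319 and 0.0349), but 7 and 8 of the 16 alternative fits ended these calls. Their adjusted p without SOX11 replicate 1 were 0.0671 and 0.0746, which left 1 higher and 1 lower.

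**Figure D5:**
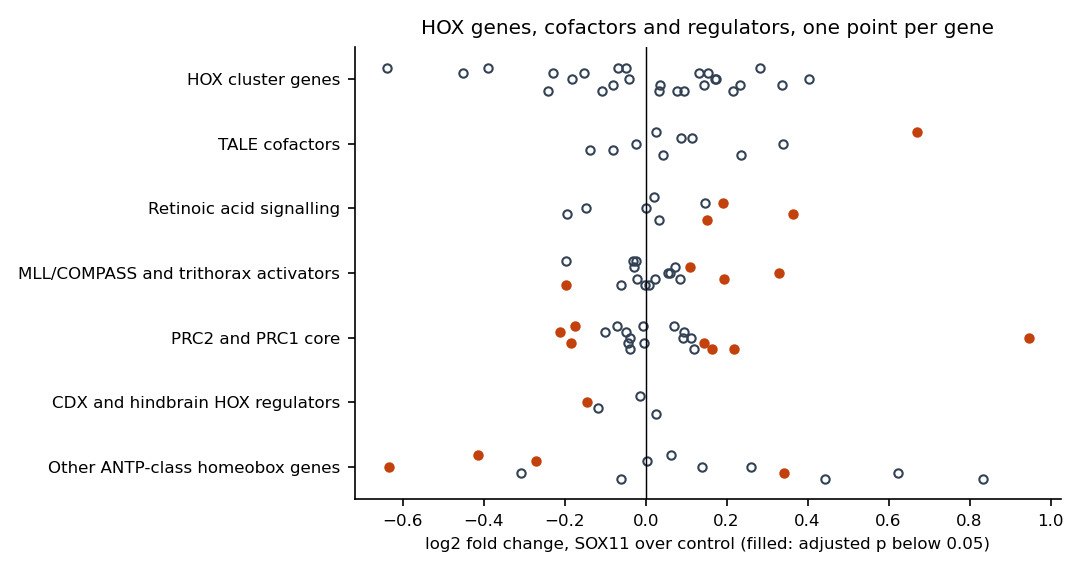
Log2 fold change of SOX11 over control for tested genes of the HOX clusters and of 6 lists of cofactors, regulators and other homeobox genes (filled points, adjusted p below 0.05; genes counted only in totals are not drawn). The HOX row draws 26 of the 27 tested HOX genes, with 0 filled points, while TGIF2 (0.67) and CBX2 (0.95) are the highest filled points of their lists.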

How the data were processed

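RNA was measured in 8 DU145 libraries (poly(A) RNA, TruSeq Stranded mRNA kit, per the labels). The authors deposited raw counts per Ensembl gene, 1 column per library and no normalization; all columns were matched by name. Per the submitters' processing notes, cutadapt, FastQC, STAR 2.7.0e and GRCh38 were used; the sources used here do not state the counter, its strand setting or the annotation. Symbols matched 32053 of 32066 identifiers; exon lengths and positions came from GENCODE 29, which holds 30159 of them and may differ from the counted annotation.

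Counts were filtered with filterByExpr (minimum count 10), scaled with TMM factors and tested across all 15665 remaining genes with edgeR 4.0.16 (quasi-likelihood, robust, group only; R 4.3.3), with Benjamini-Hochberg adjustment over that whole set. The test was checked on simulated data. Standard errors (SE) come from the coefficient and its F statistic, and CPM are TMM-scaled. Intervals of fold changes rest on the spread between libraries, and the floor for a count of 0 (3 counts) covers counting error only. Libraries of a group differed by more than counting noise in every pair. DESeq2 1.42.0 and limma-voom (limma 3.58.1), other scalings and filters, a replicate block and left-out libraries were alternatives.

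Tested HOX genes are named, with values per library for those of highest level, smallest p or largest difference. Of the other lists up to 4 called genes with the smallest adjusted p are named, and of the cluster regions all called genes; further genes beside them (HOTAIR, HOXC13-AS, PBX2, PBX3, MEIS2, CRABP2, EZH2, SUZ12) were chosen after their values were seen. Some genes are counted in totals and not reported singly here. The members and lists were chosen with earlier results of these data known.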

Additional observations from a re-analysis of the deposited data

Results flagged for a closer look

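HOX genes were examined in each group where a library had at least 3 counts, 60 combinations in all, and 2 stood out because 1 library stood far from the other 3 of its group. The gap is compared with a critical value for groups of 4 libraries. For HOXB13 in the SOX11 group, the gap between replicate 1 and the nearest other library, divided by the range of the group, was 1, with 84 counts against 0, 0 and 0. For HOXC12 in the SOX11 group the same ratio was 1, with 4 counts in replicate 1 against 0, 0 and 0. With 3 libraries at 0 the ratio is 1 whatever the count in the other library, so it says nothing of the size of that count. For continuous values, chance alone marks about 1 in 20 groups, or about 3 of the 60 combinations, beside the 2 found. Low counts with ties at 0 need not follow that rate, so this comparison decides nothing here. Both cases fall on the same library. That library also held the counts of KLK3, KLK2, FOLH1 and TMPRSS2 given above. HOXC12 rests on 4 counts, which is near the limit of 3 that a count of 0 allows.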

How the results depend on the processing

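In 8 fits with a library left out, the number of HOX genes called ran from 0 to 2 (HOXC11 and HOXC13 without SOX11 replicate 2, HOXC10 without SOX11 replicate 3, HOXB6 without control replicate 2), and it was 0 in the other 5 of these fits and under each other scaling, filter and tool. Genes called over the whole table ran from 2466 to 3057 in these fits and were 2407 with DESeq2. The HOX calls came where the library left out ran against the difference, which favours a call. In the fit without SOX11 replicate 1 and in that without control replicate 3, 0 HOX genes had an unadjusted p below 0.05 (edgeR). Without SOX11 replicate 1 and control replicate 4 together, a choice made after seeing the data, 2096 genes and 0 HOX genes were called, and the log2 fold changes of HOXA5 (-0.018), HOXB9 (-0.023) and HOXD9 (-0.065) turned negative. With a library left out, uncalled genes near 0 changed sign, and their log2 fold changes ran from -0.17 to 0.093 for HOXA13, from -0.093 to 0.0037 for HOXA3, from -0.038 to 0.18 for HOXA5, from -0.014 to 0.077 for HOXB3, from -0.025 to 0.086 for HOXB9 and from -0.0080 to 0.21 for HOXD9. The cause was not tested.

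With the replicate number as a replicate block, 2899 genes and 0 HOX genes were called. Same-numbered libraries correlated at -0.068 to 0.11 in their deviations from the group means, and 3 of 8 libraries correlated best with their own number. The labels do not say what the number marks, and whether same-numbered libraries share a culture or day was not tested. Of the called cofactor, regulator and neighbouring genes, 0 changed direction in the 16 alternative fits. Counts of 9 to 24 limit HOXD1.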
